A study of Gallus gallus with 14 samples.

Results

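The control retinas of a study of lens-induced myopia were taken as a reference profile of the retina of the young chick. They were chosen by their titles as the 7 control samples of 14 in the series, and the other 7 came from eyes that wore a -10 D lens. All were retinas of wild type White Leghorn chickens. The labels give an age of postnatal day 3, the age at which lenses were fitted, and collection after 6 days of treatment, in the same words for controls. The control samples are called 57, 58, 59, 62, 63, 64 and 65 after the numbers in their titles. Nothing in the labels says that each came from a separate animal, or gives a sex, so the spreads below are between these samples and may in part be technical. The whole retina was sequenced, so fewer cells of a type and less RNA per cell cannot be told apart.

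The vertebrate retina passes light signals from photoreceptors through bipolar cells to ganglion cells, whose axons form the optic nerve, while horizontal and amacrine cells act sideways between them. Müller glia span the tissue, recycle glutamate and support the neurons. The chick is active by day, and its retina is known for a high share of cones of several spectral types, for the absence of blood vessels within it, and for a clock that drives melatonin synthesis in photoreceptors. The deposited values are CPM, which state the share of a library's reads that fall on a gene. A long transcript collects more reads than a short one at the same number of molecules. Where genes are ranked or called high or low below, this refers to their share of reads and not to numbers of molecules.

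Each library held 32.3 to 38.8 M reads (35.5 M ± 2.32, SD, n = 7), as judged from the value of 1 read, of which 10.8 to 13.01 M lay in the listed genes. At that depth, 3 reads corresponded to 0.0774 to 0.0928 CPM. Of 18631 listed genes, 11145 had a mean of at least 1 CPM, and 10362 reached 1 CPM in all 7 libraries, while 244 had no read in any of them. The genes at 1 CPM or more had a median of 10.6 CPM, with quartiles of 3.68 and 29.0 CPM. Expression was spread over many genes, since 886 genes held 50% of the listed CPM and 644 genes had at least 100 CPM. Spearman's rho over all genes between pairs of libraries was 0.983 to 0.986 among the 6 other than 65, and 0.977 to 0.980 for the pairs with 65. Control 65 stood apart in genes of the sex chromosomes, as described below.

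The feature with the highest level was RN7SL1, the RNA of the signal recognition particle, on chromosome 5 (57738304 to 57738594 on GRCg6a). It reached 12519 in 57, 13000.4 in 58, 10932 in 59, 11635 in 62, 10519 in 63, 10441 in 64 and 12271 in 65 CPM and held 3.48% of the listed CPM on average. Libraries were made from total RNA after removal of ribosomal RNA, per the labels. SYNE1, a giant protein that links the nucleus to the cytoskeleton, came next at 3202 ± 150.4 CPM (SD, n = 7), and ranged from 2935 in 62 to 3384 in 64. The mitochondrial genome contributed the features EYY68_mgp13 at 1343 ± 156 CPM and EYY68_mgr01 at 635 ± 80.3 CPM.

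Among the 20 highest features, the ankyrins ANK2 and ANK3, which anchor membrane proteins, averaged 1171 ± 52.1 CPM and 667 ± 22.9 CPM. DST, a cytoskeletal linker, averaged 1012 ± 76.1 CPM, and DYNC1H1, the heavy chain of cytoplasmic dynein, 789 ± 27.2 CPM. Of the synaptic genes, PCLO, a scaffold of the presynaptic active zone that also works at ribbon synapses, averaged 622 ± 35.6 CPM, and SYT1, a calcium sensor of vesicle release, 651 ± 46.4 CPM. Glycolysis was represented by LDHA at 944 ± 87.1 CPM, GAPDH at 754 ± 54.6 CPM and ENO1 at 637 ± 66.5 CPM. The chaperones HSP90AA1 and HSPA8 averaged 641 ± 96.7 CPM and 597 ± 68.6 CPM. PDE6H, the inhibitory subunit of cone phosphodiesterase, and GLUL, the glutamine synthetase of Müller glia, were the members of the cell class lists among the 20.

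The 20 highest features held 8.69% of the listed CPM, and the highest 100 held 18.1%. Their genomic spans mixed long and compact genes. Of the 20, 6 covered more than 100 kb and 9 less than 10 kb, with a median of 12.2 kb, beside 19.7 kb for all genes at 1 CPM or more. LOC112533599, a feature of chromosome 16 that the sources used here give no name, had the largest spread of the 20. It was at 1549.8 in 57, 1087 in 58, 1184 in 59, 899 in 62, 719 in 63, 804 in 64 and 748 in 65 CPM (CV, the SD over the mean, 0.299). The smallest spread of the 20 was that of ANK3 (CV 0.0343), followed by DYNC1H1 (CV 0.0345) and the long noncoding RNA OIP5-AS1 (CV 0.0358) at 845 ± 30.3 CPM.

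The markers named for the 4 main classes were all detected in every library. OPN1LW, the opsin of red-sensitive cones, averaged 133 ± 26.5 CPM and was at 134 in 57, 122 in 58, 136 in 59, 182 in 62, 93.1 in 63, 125 in 64 and 138 in 65 CPM. Control 62 was the highest and 63 the lowest, and the remaining libraries lay between 122 and 138 CPM. GLUL was at 552 in 57, 694 in 58, 617 in 59, 623 in 62, 630.4 in 63, 509 in 64 and 553 in 65 CPM, highest in 58. TFAP2B, a transcription factor of amacrine and horizontal cells, was at 71.7 in 57, 80.3 in 58, 75.1 in 59, 78.6 in 62, 78.8 in 63, 79.6 in 64 and 84.8 in 65 CPM, with the smallest spread of the 4 markers (CV 0.0526). RBPMS2, an RNA-binding protein of ganglion cells, was low, at 2.39 ± 0.284 CPM, and ranged from 2.005 in 58 to 2.81 in 62.

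**Figure D1:**
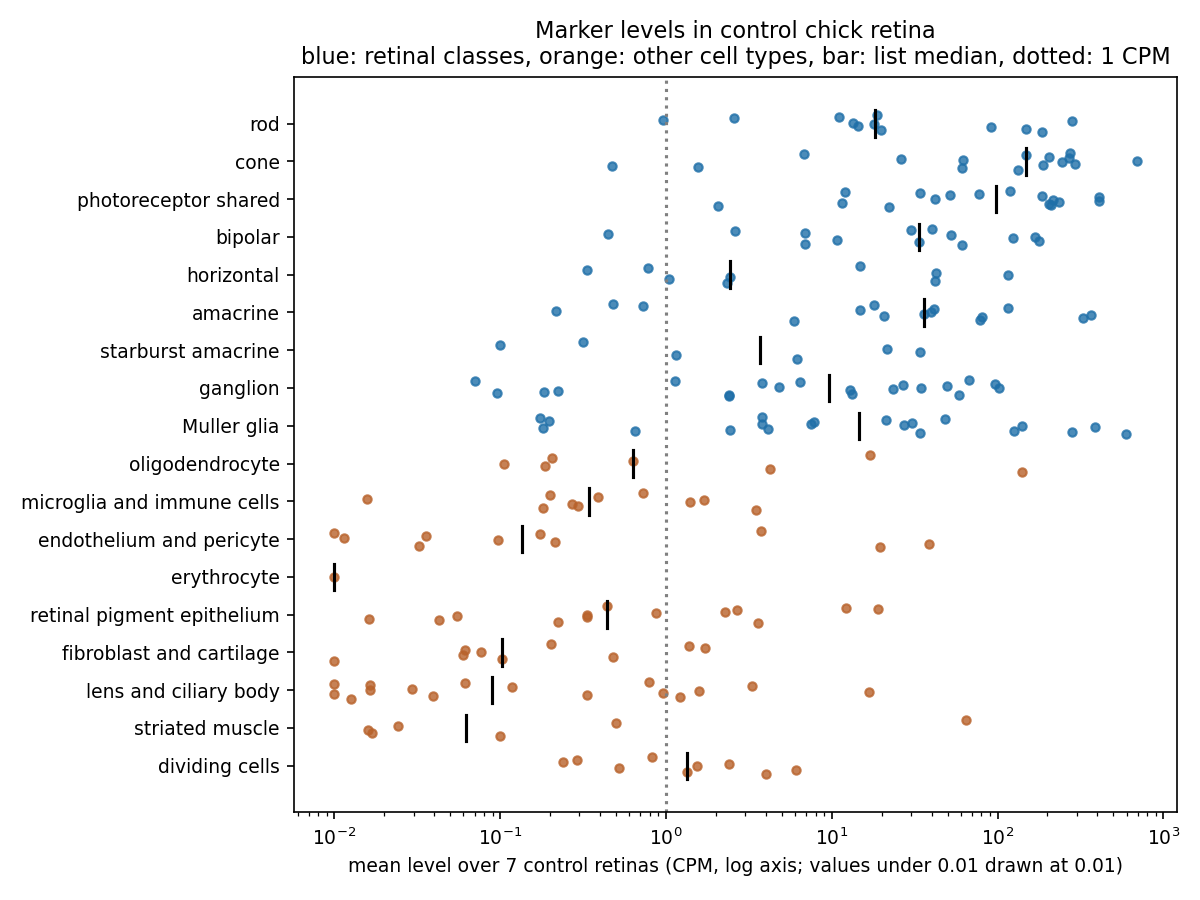
Mean level of each listed marker over 7 control retinas, in CPM on a log axis, by cell class (blue) or other cell type (orange). Each point is 1 gene and the black bar is the list's median. The cone list has a median of 149 CPM and the photoreceptor list 98.2 CPM, while the orange lists have medians under 1 CPM apart from dividing cells (1.34 CPM).

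Cone genes were present in many reads. Of 16 markers in the cone list, 15 were listed and 14 had at least 1 CPM, and their median was 149 CPM, beside 10.6 CPM for all genes at 1 CPM or more. Counts of members at 1 CPM, here and in the lists below, stand beside 11145 of all 18631 listed genes. The summed level of the list was 2793 in 57, 2682 in 58, 2567 in 59, 2699 in 62, 2354 in 63, 2587 in 64 and 2558 in 65 CPM. It varied little, with a mean of 2606 ± 139.6 CPM, control 57 highest and 63 lowest. PDE6H was at 761 in 57, 711 in 58, 658 in 59, 779.9 in 62, 598 in 63, 689 in 64 and 644 in 65 CPM, again highest in 62 and 57 and lowest in 63. GNGT2, a subunit of cone transducin, averaged 295 ± 25.2 CPM, and the cation exchanger SLC24A2 275 ± 19.9 CPM. ARR3, the cone arrestin that ends opsin signalling, averaged 270.0 ± 35.9 CPM and ranged from 223 in 64 to 311 in 57. The catalytic phosphodiesterase PDE6C averaged 244 ± 17.2 CPM, the opsin kinase GRK7 203 ± 18.01 CPM and the transducin subunit GNAT2 187 ± 18.2 CPM. THRB, a thyroid hormone receptor that directs the choice of cone opsin in mice, averaged 149 ± 12.2 CPM.

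The other cone opsins covered a wide range of read shares. OPN1MSW averaged 60.9 ± 9.54 CPM and ranged from 50.95 in 59 to 74.1 in 64. The short-wave opsin OPN1SW was at 1.70 in 57, 0.944 in 58, 1.19 in 59, 2.68 in 62, 0.819 in 63, 1.60 in 64 and 1.95 in 65 CPM. OPN2SW averaged 0.471 ± 0.215 CPM, from 0.226 in 63 to 0.825 in 62. These 3 opsins and OPN1LW were measured above the level of 3 reads in every library. Control 62 had the highest value of OPN1LW, OPN1SW and OPN2SW, and the second highest of OPN1MSW.

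The summed rod genes varied more between retinas than the summed cone genes (CV 0.125, against 0.0536). Of 15 rod markers, 12 were listed and 11 had at least 1 CPM, with a median of 18.3 CPM. Their summed level was 858 in 57, 732 in 58, 880.5 in 59, 942 in 62, 763 in 63, 822 in 64 and 643 in 65 CPM, so that the highest library had 1.46 times the level of the lowest. SAG, the rod arrestin, was at 322 in 57, 274 in 58, 281 in 59, 327 in 62, 277 in 63, 321 in 64 and 170.4 in 65 CPM. Control 65 stood alone below the other 6 libraries, which lay between 274 and 327 CPM. GNB1, a transducin subunit of rods that other neurons also make, averaged 148 ± 17.1 CPM. PDE6B, the catalytic subunit of rod phosphodiesterase, averaged 91.6 ± 10.8 CPM, and was highest in 59 at 113 CPM. PDE6G averaged 14.3 ± 3.11 CPM, GNAT1 19.7 ± 2.88 CPM and CNGA1 17.9 ± 2.36 CPM. NR2E3, a nuclear receptor of rods, was at 2.57 ± 0.626 CPM, and the rod opsin kinase GRK1 at 0.959 ± 0.417 CPM.

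For 8 steps of phototransduction a cone gene is set beside its rod partner. Transcript lengths differ within a pair, so each ratio of CPM compares libraries and does not state how many molecules of each partner were present. For the transducin subunits, GNAT2 over GNAT1 was 9.38 in 57, 11.4 in 58, 7.86 in 59, 8.56 in 62, 9.55 in 63, 9.38 in 64 and 11.2 in 65. For the phosphodiesterase, PDE6C over PDE6B ranged from 2.25 in 59 to 3.11 in 64, and PDE6H over PDE6G from 35.3 in 59 to 62.7 in 65. For the light-gated channel, CNGA3 over CNGA1 ranged from 2.64 in 62 to 4.85 in 65 and CNGB3 over CNGB1 from 1.44 in 62 to 2.75 in 57. ARR3 over SAG ranged from 0.694 in 64 to 1.55 in 65, and SLC24A2 over SLC24A1 from 10.7 in 62 to 17.2 in 58. The widest range was that of GRK7 over GRK1, from 115 in 62 to 429 in 64, where GRK1 had only 0.446 to 1.65 CPM.

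The libraries kept a tilt across these pairs. Control 58 lay above the mean log2 ratio in 7 of 8 pairs and control 65 in 6 of 8, while 62 lay above it in 1 of 8. The mean deviation was 0.21 in 65 and 0.20 in 58, against -0.34 in 62, on the log2 scale. The summed rod level was lowest in 65, next lowest in 58 and highest in 62. The pairs share their libraries and are not independent measurements. Depth was 32.3 M reads in 65 and 33.9 M in 58, the lowest of the 7, and 38.8 M in 62, the highest, and its part in the tilt was not tested.

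**Figure D2:**
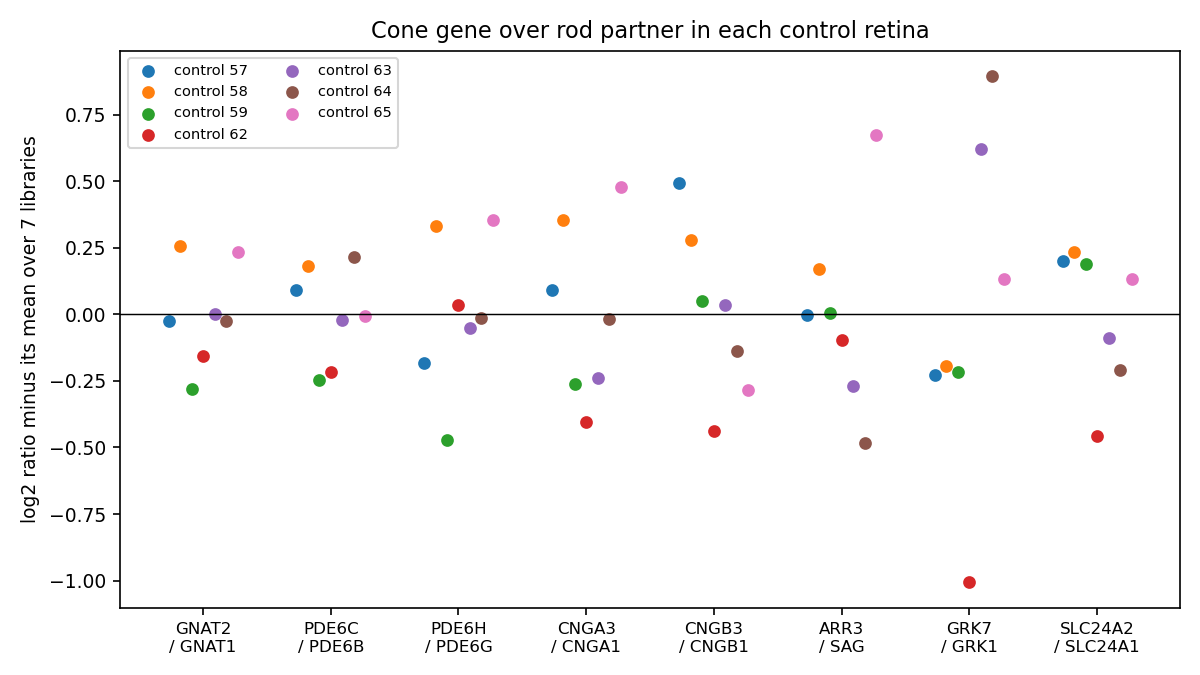
Log2 ratio of CPM of each cone gene over its rod partner, minus the mean of that ratio over 7 control retinas. Each point is 1 library. Control 58 and 65 lie mostly above 0 (7 and 6 of 8 pairs) and control 62 mostly below (1 of 8 above).

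Genes shared by rods and cones were steady. All 16 measured members of 18 had at least 1 CPM, with a median of 98.2 CPM, and their sum was 2240.0 ± 101 CPM, from 2092 in 65 to 2423 in 57. UNC119, a carrier of lipid-modified proteins to the outer segment, averaged 408 ± 18.9 CPM, and IMPG1, a proteoglycan of the matrix between photoreceptors, 408 ± 39.3 CPM. PDC, which binds transducin subunits, averaged 234 ± 14.1 CPM, and PRPH2, which shapes outer segment discs, 212 ± 10.2 CPM. GUCA1A, a calcium-dependent activator of guanylate cyclase, varied more than these. It was at 109.9 in 57, 79.02 in 58, 87.6 in 59, 74.9 in 62, 53.97 in 63, 56.9 in 64 and 76.01 in 65 CPM, with 57 the highest and 63 and 64 the lowest.

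The sums of the bipolar and amacrine lists varied least among the cell class lists. Single members varied more than the sums. Among members at 5 CPM or more, the median CV was 0.103 for bipolar and 0.0833 for amacrine genes, beside 0.0891 for all genes. Of 16 bipolar members, 13 were measured and 12 had at least 1 CPM, with a median of 33.8 CPM. The summed level was 694 in 57, 716 in 58, 715 in 59, 685 in 62, 745 in 63, 753 in 64 and 712 in 65 CPM (CV 0.0341). TRPM1, the channel that opens in ON bipolar cells at light onset, was at 168 in 57, 178 in 58, 179.6 in 59, 177 in 62, 193 in 63, 181 in 64 and 172 in 65 CPM. GRIK1, a kainate receptor of OFF bipolar cells, averaged 169 ± 13.3 CPM, and the kinase PRKCA 124 ± 6.26 CPM. The transcription factors VSX1 and OTX2 averaged 61.2 ± 6.09 CPM and 33.8 ± 4.44 CPM.

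Horizontal cells were represented by 9 of 10 members, 7 of them at 1 CPM or more, with a median of 2.43 CPM. PROX1, which amacrine cells also express, averaged 116 ± 8.54 CPM, and the calcium buffer CALB1 42.6 ± 7.59 CPM. ONECUT2, a transcription factor needed for horizontal cells in mice, lies on chromosome Z and was at 37.6 in 57, 39.8 in 58, 38.1 in 59, 41.4 in 62, 35.8 in 63, 36.8 in 64 and 62.4 in 65 CPM. Control 65 was the highest of the 7 and did not overlap the others. LHX1, a transcription factor of horizontal cells, averaged 2.43 ± 0.450 CPM.

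Amacrine cells had a sum of 1143 ± 39.3 CPM (CV 0.0344), and 12 of the 15 measured members of 16 reached 1 CPM, with a median of 35.9 CPM. Several of its members serve GABA transmission. The glutamate decarboxylase GAD1 was at 324 in 57, 337 in 58, 349 in 59, 311 in 62, 326 in 63, 339.8 in 64 and 297 in 65 CPM, highest in 59 and lowest in 65. GAD2 averaged 80.9 ± 6.24 CPM, and the glycine transporter SLC6A9 20.6 ± 2.86 CPM. PAX6 averaged 35.9 ± 3.21 CPM and MEIS2 39.4 ± 2.30 CPM.

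Among the neuropeptides of amacrine cells, 6 of 10 reached 1 CPM. NTS, neurotensin, was at 72.4 in 57, 79.02 in 58, 87.4 in 59, 68.7 in 62, 94.98 in 63, 92.5 in 64 and 80.00 in 65 CPM, PENK, the enkephalin precursor, averaged 17.9 ± 2.45 CPM, and GCG, whose product marks amacrine cells studied in chick myopia, 13.9 ± 0.605 CPM. The spread of GCG (CV 0.0436) did not exceed that of counting alone (CV 0.0451). VIP and TH, the enzyme of dopamine synthesis, averaged 0.755 and 0.476 CPM. Of the 6 starburst amacrine markers, 4 reached 1 CPM. The choline transporter SLC5A7 averaged 34.03 ± 3.94 CPM and the acetylcholine enzyme CHAT 6.18 ± 0.946 CPM, both with 57 and 65 among their 3 highest libraries. MEGF10, on chromosome Z, averaged 21.6 ± 1.93 CPM and shared this for 57 only. It was at 24.4 in 57, 23.3 in 62, 22.1 in 58 and 21.4 in 65 CPM.

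All 20 ganglion cell markers were measured and 16 reached 1 CPM, with a median of 9.61 CPM. Their sum was 496 in 57, 477 in 58, 511 in 59, 492 in 62, 489.8 in 63, 537 in 64 and 539 in 65 CPM, and 64 and 65 were highest. NEFL, a neurofilament, averaged 102 ± 9.71 CPM, ELAVL4 96.3 ± 5.51 CPM and the vesicular glutamate transporter SLC17A6 58.9 ± 9.32 CPM. SLC17A6 was highest in 64 at 77.9 CPM and lay between 49.9 and 62.6 CPM in the rest. CHRNB3, a nicotinic receptor subunit on chromosome Z, divided the libraries, with 49.5 in 57, 56.3 in 58, 84.6 in 59, 77.2 in 62, 73.04 in 63, 48.5 in 64 and 80.8 in 65 CPM. The values of 57, 58 and 64 lay below those of the other 4. POU4F1 averaged 13.3 ± 1.47 CPM, whereas POU4F2, POU4F3 and ATOH7, which act early in ganglion cell formation, averaged 0.0959, 0.184 and 0.225 CPM.

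Müller glia markers ranged widely in level. Of 21 markers, 20 were measured and 16 reached 1 CPM, with a median of 14.5 CPM, and the sum was 1643 in 57, 1953 in 58, 1767 in 59, 1777 in 62, 1786 in 63, 1590.2 in 64 and 1543 in 65 CPM. GLUL, described above, was followed by CA2, a carbonic anhydrase, at 359 in 57, 566 in 58, 390.1 in 59, 396 in 62, 367 in 63, 339.7 in 64 and 297 in 65 CPM. Control 58 was the highest of both, and for CA2 it stood apart from the other 6, which lay between 297 and 396 CPM. The glutamate transporter SLC1A3 averaged 280.4 ± 19.98 CPM and did not share this order. It was highest in 63 at 311 CPM, and its value of 268 CPM in 58 was above that of 65 alone. So the high sum of 58 reflects GLUL and CA2 and does not hold for each member. The water channel AQP4 averaged 140.2 ± 16.5 CPM and vimentin, VIM, 126 ± 9.65 CPM. RLBP1, a carrier of retinoids, averaged 33.9 ± 5.72 CPM and was highest in 62 at 44.5 CPM. GFAP, which rises in injured Müller glia of mammals, was at 4.68 in 57, 2.39 in 58, 4.14 in 59, 5.67 in 62, 4.32 in 63, 2.31 in 64 and 2.97 in 65 CPM. SOX9 and HES1 averaged 0.650 and 0.182 CPM.

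**Figure D3:**
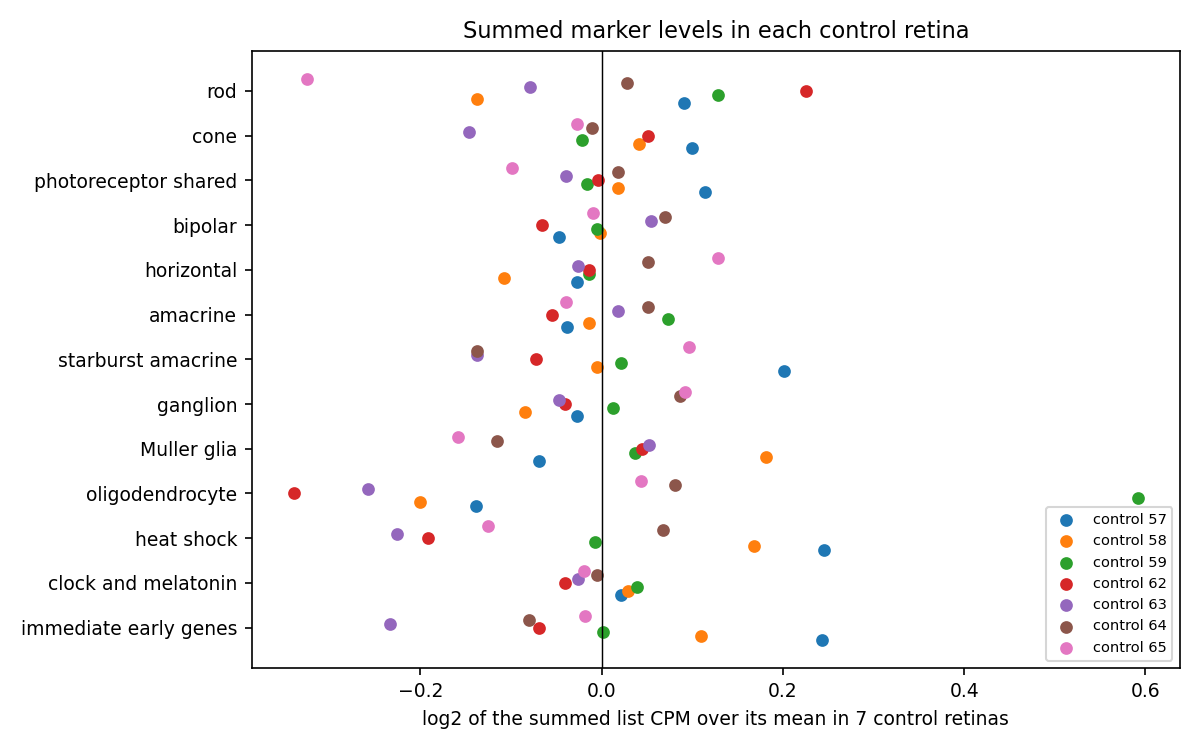
Summed level of each list in each of 7 control retinas, as the log2 ratio to its mean over the 7 libraries. The bipolar and amacrine sums lie close to 0, the rod sum is lowest in 65, and the oligodendrocyte sum is highest in 59 (246 CPM, against 129 to 172 CPM in the other 6). The oligodendrocyte sum is mostly MBP.

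Oligodendrocytes myelinate ganglion cell axons within the chick retina. Their list had the most uneven summed level (CV 0.244) of the lists with more than 1 measured member. Its sum of 163 CPM was mostly MBP, which averaged 141 CPM with a CV of 0.246. Of 8 markers, 7 were measured and 3 reached 1 CPM. SOX10, CLDN11, MOG and OLIG2 averaged 0.632, 0.205, 0.187 and 0.105 CPM. MBP, a myelin protein, was at 129 in 57, 127 in 58, 213 in 59, 111 in 62, 116 in 63, 148 in 64 and 141 in 65 CPM. CNP, an enzyme of myelin, was at 14.6 in 57, 11.2 in 58, 23.8 in 59, 13.7 in 62, 15.4 in 63, 18.4 in 64 and 21.4 in 65 CPM. Both were highest in 59. SPARCL1, a secreted matrix protein that glia make, was also highest in 59, at 54.8 CPM, and lay between 22.8 and 32.3 CPM in the other 6.

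Most measured markers of immune, vascular, blood and connective tissue cells had few reads, though KDR and PECAM1 had more. Of the microglia and immune markers, 3 of the 10 measured reached 1 CPM, led by CSF1R at 3.47 ± 0.396 CPM, and the sum ranged from 6.93 in 58 to 9.72 in 62 CPM. Of the 10 endothelial and pericyte markers, KDR averaged 38.4 ± 5.29 CPM, PECAM1 19.4 ± 2.84 CPM and ESAM 3.72 ± 1.01 CPM, while CDH5, TIE1, CLDN5, VWF and TEK each averaged under 0.3 CPM. Of the 13 erythrocyte markers, only SLC4A1 was listed, with 1 read in 59 and none in the other libraries. No globin symbol of that list was measured, so the share of blood cannot be judged from it. The fibroblast and cartilage list had 2 of 9 measured members at 1 CPM or more, COL2A1 at 1.73 ± 0.304 CPM and COL9A1 at 1.38 ± 0.423 CPM, and COL1A1 was at 0.00395 CPM.

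The pigment epithelium adheres to the back of the retina, and its markers had a median of 0.439 CPM. All 13 markers were measured and 5 reached 1 CPM. MITF, a transcription factor of pigment cells, averaged 19.05 ± 1.31 CPM, OCA2 12.2 ± 1.68 CPM and RPE65, the isomerase of the visual cycle, 3.61 ± 0.799 CPM. The enzymes and proteins of melanin granules TYR, TYRP1, PMEL and MLANA each averaged under 0.4 CPM. The summed list ranged from 38.3 in 58 to 44.5 in 59 CPM. RPE65 was at 2.31 in 57, 3.57 in 58, 3.40 in 59, 3.45 in 62, 4.01 in 63, 4.99 in 64 and 3.56 in 65 CPM, with 64 highest and 57 lowest. The lens and ciliary body list had 4 of 16 measured members at 1 CPM or more, led by CRYBA4 at 16.9 ± 1.26 CPM, and CRYAA averaged 0.0126 CPM. In the striated muscle list, ACTN2, an actin crosslinker that neurons also make, averaged 64.1 ± 6.17 CPM, and the other 5 measured members were under 1 CPM.

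Markers of dividing cells had a median of 1.34 CPM. Of these, 5 of 9 were at 1 CPM or more, a share near that of all listed genes (11145 of 18631). PCNA averaged 6.07 ± 0.418 CPM and MKI67 4.02 ± 0.560 CPM. The chick retina keeps a rim of dividing progenitors at its edge, and whether the samples include it is not given in the labels. CCNA2 was at 3.48 CPM in 59 and at 2.05 to 2.47 CPM in the other 6. Interferon response genes were low, with a median of 0.332 CPM and 3 of 11 at 1 CPM or more.

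Glycolysis, on which photoreceptors rely heavily, was represented by many reads. Of 19 members, 17 were measured and 16 reached 1 CPM, with a median of 235 CPM. The sum was 5361 in 57, 5313 in 58, 5314 in 59, 5692 in 62, 5229 in 63, 5339 in 64 and 5015 in 65 CPM, and 62 was highest and 65 lowest. After LDHA, GAPDH and ENO1 came PKM at 499 ± 33.5 CPM and PFKP at 425 ± 30.3 CPM. HK2, a hexokinase that photoreceptors use in mammals, was at 171 in 57, 180.1 in 58, 175 in 59, 271 in 62, 133 in 63, 174 in 64 and 194 in 65 CPM. Control 62 was the highest and 63 the lowest, as for OPN1LW.

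Clock genes were expressed throughout. Of 23 members, 22 were measured and 20 reached 1 CPM, with a median of 31.8 CPM, and their sum varied less than that of any other list (CV 0.0211). HLF averaged 265 ± 12.8 CPM, PER2 239 ± 19.2 CPM and RORA 237 ± 12.02 CPM. PER2, a repressor of the clock, was at 269 in 57, 252 in 58, 248 in 59, 241 in 62, 223 in 63, 218 in 64 and 219.7 in 65 CPM. ARNTL, the partner of CLOCK in the activating arm, was at 24.4 in 57, 24.1 in 58, 20.1 in 59, 25.9 in 62, 33.8 in 63, 36.8 in 64 and 30.1 in 65 CPM. The 3 libraries with the highest ARNTL, 63, 64 and 65, had the 3 lowest values of PER2. NFIL3, a clock output factor on chromosome Z, was at 23.5 in 57, 19.5 in 58, 21.2 in 59, 27.7 in 62, 30.2 in 63, 33.1 in 64 and 38.4 in 65 CPM and was also highest in those 3 libraries. Genes of Z were mostly higher in 65, as described below, and the value of NFIL3 in 65 cannot be told apart from that. PER3 averaged 58.2 ± 8.36 CPM and was lowest in 64 and 63. AANAT, the enzyme that sets the rhythm of melatonin synthesis, was at 3.20 ± 0.787 CPM. The time of day of collection is not given in the labels.

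Immediate early genes, which neurons switch on within minutes of a stimulus, had a median of 1.62 CPM. Of 18 members, 14 were measured and 7 reached 1 CPM, beside 11145 of all 18631 listed genes. EGR1, whose amacrine cell protein is a known reporter of defocus in chick, was at 9.17 in 57, 8.51 in 58, 7.64 in 59, 5.78 in 62, 3.21 in 63, 4.96 in 64 and 5.24 in 65 CPM. Controls 57, 58 and 59 lay above the other 4 libraries. JUN averaged 7.92 ± 1.25 CPM, BTG2 9.26 ± 1.81 CPM and FOS 0.503 ± 0.287 CPM.

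Of 14 heat shock genes, 12 were measured and all of these reached 1 CPM, with a median of 43.0 CPM, and their sum was 1908 in 57, 1809 in 58, 1602 in 59, 1409.8 in 62, 1376 in 63, 1687 in 64 and 1476 in 65 CPM. HSP90AA1 was at 770.1 in 57, 732 in 58, 617 in 59, 517 in 62, 545 in 63, 705 in 64 and 597 in 65 CPM. HSPA8 was at 691 in 57, 678 in 58, 597 in 59, 558 in 62, 508 in 63, 608 in 64 and 539 in 65 CPM, with the same 2 libraries, 57 and 58, on top. HSPH1 was at 54.5 in 57, 57.2 in 58, 60.8 in 59, 39.4 in 62, 31.5 in 63, 37.7 in 64 and 33.6 in 65 CPM, with 57, 58 and 59 above the rest, the same libraries as for EGR1. HSPA5, a chaperone of the endoplasmic reticulum, was highest in 57 at 108 CPM and lay between 64.96 and 82.4 CPM in the other 6.

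The typical gene varied little between the control retinas. Among 7627 genes with a mean of at least 5 CPM, the median CV was 0.0891, and its quartiles were 0.0639 and 0.125. Counting reads accounts for a CV of 0.0380 at the median gene. The excess CV, what remains after counting variance is subtracted, had a median of 0.0783. Genes with an excess CV of at least 0.3 were called variable, which held for 121 of 7627 genes (1.59%). Of these, 23 were on chromosome W and 21 on Z, where control 65 differed from the rest. The remaining 77 lay elsewhere (1.07% of 7218 genes), and 69 of them still reached 0.3 without 65. At the edge of this rule, SPTLC1 and VCP were just inside (excess CV 0.3008 and 0.3003) and LOC112533599 and KNL1 just outside (0.2988 and 0.2979). Among the list members at 5 CPM or more, EGR1 was the only variable gene (excess CV 0.330).

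**Figure D4:**
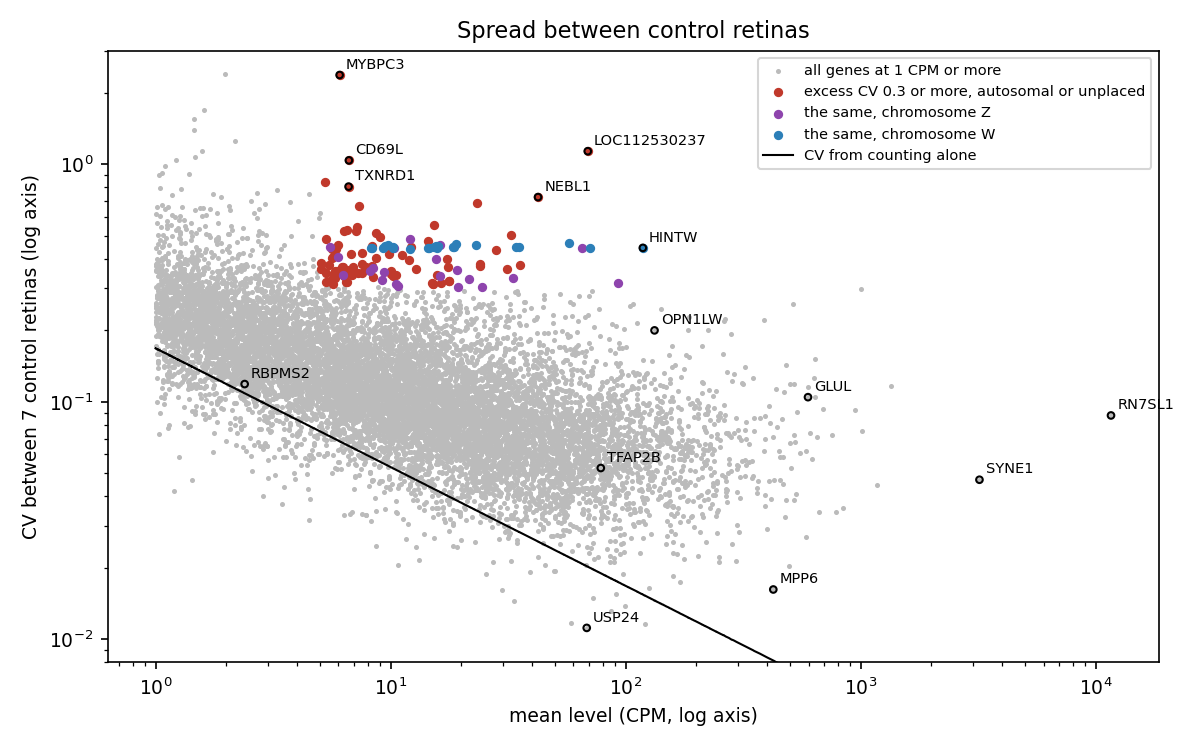
CV between 7 control retinas against mean level, both on log axes, for genes at 1 CPM or more. Red, purple and blue points are the 121 genes with an excess CV of at least 0.3 and a mean of at least 5 CPM, and the black line is the CV that counting alone gives. MYBPC3 lies farthest above the line, W genes form a flat band lower down, and USP24 lies below the line.

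The most variable gene outside W owed its place to 1 retina. MYBPC3, cardiac myosin binding protein C, a sarcomere protein, was at 0.643 in 57, 0.590 in 58, 0.359 in 59, 0.799 in 62, 0.763 in 63, 38.7 in 64 and 0.618 in 65 CPM. Without 64 its excess CV was 0.127, against 2.37 with it. In 64, ACTA1 and TNNI2 of the striated muscle list were at 0.0525 and 0.368 CPM. Whether other genes of heart muscle were high in 64 was not tested. Among the lens retinas MYBPC3 was at 22.7 CPM in 1 library, 53, and at 0.617 to 1.10 CPM in the other 6. TXNRD1, a thioredoxin reductase, likewise was high in 1 library, at 18.6 in 57, 3.72 in 58, 4.92 in 59, 3.79 in 62, 6.16 in 63, 4.65 in 64 and 4.58 in 65 CPM, and its excess CV was 0.176 without 57. Thioredoxin reductase values in the lens group lay between 3.61 and 5.70 CPM.

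Other variable genes took several levels among the control retinas. LOC112530237, a short feature on chromosome 23 (2304003 to 2304208), was at 19.6 in 57, 13.7 in 58, 92.4 in 59, 13.2 in 62, 220.1 in 63, 110.0 in 64 and 14.04 in 65 CPM. The libraries 57, 58, 62 and 65 lay between 13.2 and 19.6 CPM, and 59, 63 and 64 at 92.4 CPM or more, with nothing between. In the lens group, 46 and 54 were at 15.6 and 13.3 CPM and the other 5 at 96.3 to 125 CPM. CD69L, named for the lymphocyte receptor CD69, was at 0.676 in 57, 5.29 in 58, 0.546 in 59, 0.335 in 62, 10.5 in 63, 10.7 in 64 and 18.4 in 65 CPM. Controls 57, 59 and 62 were under 1 CPM and the other 4 above 5 CPM. NEBL1, on chromosome 7, was at 14.4 in 57, 27.4 in 58, 102 in 59, 35.5 in 62, 35.2 in 63, 18.2 in 64 and 64.3 in 65 CPM, and in the lens group at 35.3 to 117 CPM. TDRD12, a Tudor domain protein of the piRNA pathway of germ cells, was at 10.7 in 57, 9.84 in 58, 4.23 in 59, 3.26 in 62, 3.97 in 63, 3.72 in 64 and 10.01 in 65 CPM. Controls 57, 58 and 65 lay between 9.84 and 10.7 CPM and the other 4 at 3.26 to 4.23 CPM. COCH, a secreted protein of the inner ear matrix, was at 4.06 in 57, 10.7 in 58, 5.31 in 59, 4.20 in 62, 3.78 in 63, 4.73 in 64 and 11.5 in 65 CPM, with 58 and 65 high.

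The 4 symbols MANBAL1, MANBAL7, MANBAL14 and MANBAL17 were variable, each with its own order of libraries. MANBAL1 was highest in 58 at 23.9 CPM and lowest in 65 at 5.04 CPM. MANBAL17 was highest in 57 at 13.9 CPM and lowest in 64 at 2.05 CPM. MANBAL14 was highest in 64 at 31.9 CPM. Genes of 1 family can share reads, and how the authors' counting treats such reads was not stated, so these values are uncertain. FN1, fibronectin of the extracellular matrix, was at 3.57 in 57, 5.22 in 58, 5.22 in 59, 8.35 in 62, 5.06 in 63, 9.56 in 64 and 2.63 in 65 CPM.

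Of 14 histone genes at 5 CPM or more, 6 were variable, beside 1.07% of all genes outside Z and W and 15.1% of those with a span under 2 kb. The median CV of the 14 was 0.290. HIST1H46L2 was at 18.4 in 57, 8.47 in 58, 14.7 in 59, 14.4 in 62, 7.82 in 63, 5.94 in 64 and 8.49 in 65 CPM and H2AFJ at 14.4 in 57, 10.1 in 58, 11.1 in 59, 8.50 in 62, 5.38 in 63, 3.59 in 64 and 5.63 in 65 CPM. Histones package DNA, and many of their transcripts lack a poly(A) tail. NDUFA13, a subunit of respiratory complex I, was at 14.9 in 57, 12.97 in 58, 13.6 in 59, 10.1 in 62, 6.44 in 63, 4.10 in 64 and 6.86 in 65 CPM, and UQCR10, of complex III, at 15.9 in 57, 13.8 in 58, 12.02 in 59, 10.8 in 62, 7.06 in 63, 7.20 in 64 and 6.93 in 65 CPM. COX17, a copper chaperone of complex IV, was at 22.8 in 57, 17.7 in 58, 18.3 in 59, 14.2 in 62, 11.7 in 63, 9.72 in 64 and 10.9 in 65 CPM. The ribosomal protein RPS19 was at 38.8 in 57, 29.5 in 58, 27.4 in 59, 25.3 in 62, 16.3 in 63, 12.8 in 64 and 17.2 in 65 CPM and RPLP1 was highest in 57 at 22.02 CPM. These 7 genes were picked because 57 was their highest library and 63, 64 and 65 were among their 4 lowest. Both held for 9 of all 18 variable genes with a span under 2 kb, for 2 of the 6 variable histone genes and for 13 of all 77 variable genes. Among the histones, HIST1H4I was highest in 59 and HIST2H3L and HIST1H4D in 58. The short features LOC112530237 and LOC112532457 were highest in 63 and 64. Of the 77 variable genes, 26 were highest in 57 and 19 lowest in 64. The share of all genes with these orders of libraries is not given here. These counts are therefore not a result about variable, short or histone genes as such.

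Spread was larger in short genes. Of 119 genes with a span under 2 kb, 18 were variable (15.1%), with a median CV of 0.169. Of 960 genes over 100 kb, 2 were variable (0.208%), with a median CV of 0.0722. The 2464 genes of 10 to 30 kb lay between, with a median CV of 0.0891 and 0.731% variable. Median levels were also higher in longer genes, at 10.5 CPM under 2 kb and 39.3 CPM over 100 kb. The excess CV, which allows for counting, was 0.156 under 2 kb and 0.0646 over 100 kb. In the lens group the median excess CV of the same classes was 0.148 and 0.0613.

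The lens retinas gave the same measure in samples that did not choose the genes. Among 7075 genes outside Z and W with at least 5 CPM in both groups, 66 were variable in control. Of the same genes, 67 were variable in the lens group (0.947%), and 34 were variable in both. That is 51.5% of the control genes and 50.7% of the lens genes. Over these 7075 genes Spearman's rho of the excess CV was 0.477, which is a description across genes, since genes are not independent replicates. LOC112530237, CD69L, NEBL1 and TDRD12 were variable in both groups, with an excess CV in the lens group of 0.575, 0.653, 0.511 and 0.595.

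Many well expressed genes were steady between the retinas. Of 1623 genes with at least 50 CPM, 453 had a CV under 0.05 (27.9%), and 8 of the 1623 varied no more than counting alone. USP24, a deubiquitinating enzyme, was at 67.8 in 57, 67.1 in 58, 68.00 in 59, 69.5 in 62, 68.7 in 63, 68.4 in 64 and 68.7 in 65 CPM (CV 0.0112). DENND4A, an activator of Rab GTPases, averaged 121 ± 1.40 CPM, and SEMA5A, a guidance cue, 58.4 ± 0.684 CPM. VAPB, a tether at the endoplasmic reticulum, averaged 86.6 ± 1.14 CPM, the GTPase activator MCF2L 99.2 ± 1.36 CPM and the tubulin ligase TTL 72.7 ± 1.08 CPM. The scaffold MPP6 combined a high level with a small spread, at 427 in 57, 422 in 58, 423 in 59, 429.7 in 62, 413 in 63, 425 in 64 and 435 in 65 CPM (CV 0.0162). ITSN1, an endocytic scaffold, averaged 169.6 ± 2.97 CPM and ADAM22, a synaptic receptor, 159.6 ± 2.96 CPM. HECA, PCNX1 and the translation factor EIF4H completed the 12 smallest CVs, at 90.9 ± 1.41 CPM, 126 ± 2.07 CPM and 97.9 ± 1.84 CPM. These 12 were picked from the 1623 genes for their small CV in these same libraries. In the lens group, which did not choose them, each had a larger CV, from 0.0255 for ITSN1 to 0.0598 for SEMA5A.

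Genes often used to scale quantitative PCR were not among the 12 steadiest. PGK1 and RPL4 had a CV of 0.0365 and 0.0406, GAPDH 0.0724 and UBB 0.0849. ACTB, the cytoskeletal actin, was at 63.7 in 57, 64.5 in 58, 65.6 in 59, 90.7 in 62, 75.1 in 63, 67.02 in 64 and 80.2 in 65 CPM (CV 0.140). EEF1A1, an elongation factor, was at 272 in 57, 287 in 58, 236 in 59, 327 in 62, 263 in 63, 209 in 64 and 220.1 in 65 CPM (CV 0.158). Both were highest in 62. The median CV of all genes at 50 CPM or more was 0.0642.

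Control 65 was the only control library without W-linked transcripts. In birds, females carry a Z and a W chromosome and males carry a pair of Z. HINTW, a W-linked member of the HINT family, was at 0.0928 CPM in 65, against 129.8 to 147 CPM in the other 6. NIPBLL was at 0.0935 CPM in 65, against 75.1 to 88.4 CPM in the other 6, and CHDB1 at 0.124 CPM, against 51.5 to 78.4 CPM. HNRNPKL was at 0 in 65, against 37.1 to 44.2 CPM in the other 6. Of the 23 W genes at 5 CPM or more, all had at most 4 reads in 65, and 11 had none. The labels give no sex, and a male bird has no W. With 1 such library, the values below have no replicate and no test.

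Transcripts of chromosome Z were mostly higher in 65. Among 386 Z genes at 5 CPM or more, 351 were higher in 65 than the mean of the other 6. The median difference was 0.47 in log2(CPM + 1), or 1.39-fold. Of these 386 genes, 311 were highest in 65 (80.6%), beside 14.6% of all genes and 11.1% of genes outside Z and W. A total of 140 Z genes were at least 1.5-fold higher in 65 (36.3%), beside 19 of 7218 genes outside Z and W. Over all genes it was 2.08%, these 140 included. Over the 28 other chromosomes with at least 30 genes, the medians lay between -0.02 and 0.05. ADGRV1, an adhesion receptor at photoreceptor cilia, was at 396 CPM in 65 and at 241 ± 10.2 CPM in the other 6 (SD, n = 6). MPDZ, a scaffold of tight junctions and photoreceptors, was at 388 CPM in 65 and at 241 ± 15.3 CPM in the other 6. The ribosomal protein RPS6 was at 158 CPM in 65 and at 82.3 ± 7.92 CPM in the other 6. CETN3, a centrin, was at 31.97 CPM in 65, against 10.3 to 16.8 CPM in the other 6.

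**Figure D5:**
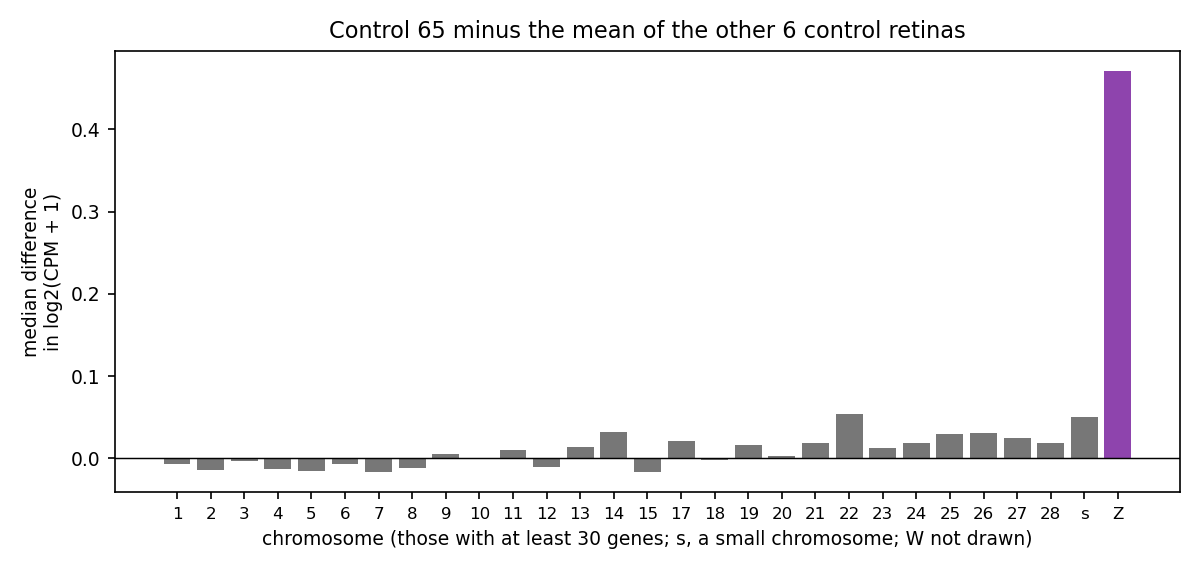
Median over genes of the difference in log2(CPM + 1) between control 65 and the mean of the other 6 control retinas, by chromosome, for genes with a mean of at least 5 CPM. Chromosome Z stands at 0.47 and the 28 other chromosomes drawn lie between -0.02 and 0.05. Chromosome W, at -4.23, is not drawn.

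In contrast, 5 of the 386 Z genes were at least 1.5-fold lower in 65, beside 23 of 7218 genes outside Z and W. Over all genes it was 0.669%, W and these 5 included. SLC1A1, a glutamate transporter of neurons, was at 17.2 CPM in 65, against 27.1 to 33.1 CPM in the other 6. The other 4 lay in 1 stretch of the deposited Z coordinates, 27178701 to 27398263 on GRCg6a. From it, 10 features were taken because they had almost no reads in 65 and at least 0.5 CPM on average in the other 6. LOC100859072 was the highest, at 76.2 CPM in the other 6. Together the 10 features had 1 read in 65, or 0.0309 CPM, against 117 ± 7.92 CPM in the other 6 (SD, n = 6, range 108 to 129 CPM). Their near absence in 65 follows from that choice, and any feature of the stretch with more reads in 65 was left out. As for the W genes, reads of these features were present in the 6 other libraries and almost absent in 65, although the table places them on Z. Whether the stretch belongs to W was not tested.

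Outside Z and W, control 65 differed less. Of 7218 genes, 19 were at least 1.5-fold higher and 23 at least 1.5-fold lower than in the other 6. SAG, given above, had the highest level of these, at 170 CPM in 65, against 300.4 CPM on average in the other 6. LOC107053809 was at 0.866 CPM in 65, against 5.48 to 13.2 CPM in the other 6. CERKL, a gene of retinal degeneration in humans, was at 17.1 CPM in 65 and at 27.9 CPM on average in the other 6. On the higher side, CD69L was at 18.4 CPM in 65, against 0.335 to 10.7 CPM in the other 6. ST8SIA2, a sialyltransferase that modifies NCAM, was at 64.1 CPM in 65 and at 41.4 CPM on average in the other 6.

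The main axis among the 7 libraries was the contrast of 65 with the rest. Over 11145 genes, the first principal component held 36.0% of the variance and placed 65 at 28.5, against -7.62 to 0.25 for the other 6. The second held 17.7% and set 63 and 64 apart, at 10.1 and 15.4. With Z and W genes left out, the first component held 25.9% of the variance, with 57, 58, 59 and 62 on 1 side and 63, 64 and 65 on the other. Its largest negative loadings included OST4, NDUFA13, H2AFJ and RPS19, and its largest positive ones CD69L and MYBPC3. The second component then held 19.6% and was led by 62, at 15.3.

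Over all 7 libraries neither component was shown to follow depth or the share of reads in listed genes. In 4 relations over 7 libraries, by exact permutation with Benjamini-Hochberg adjustment, Pearson's r of the first component was -0.50 with depth (adjusted p = 0.699) and 0.04 with the listed share (adjusted p = 0.897). For the second component, r was 0.29 with depth and 0.35 with the listed share (exact adjusted p = 0.699 for each). Spearman's rho was 0.04, -0.11, -0.14 and 0.43 in the same order, with exact permutation adjusted p = 0.963 for each. Leaving out the 2 libraries farthest from the median of each measure gave r of 0.89, -0.06, 0.73 and -0.92. Since 65 stood alone, the components were also taken over the other 6 libraries. There the second component had r = 0.92 with depth (exact permutation adjusted p = 0.00556, the smallest that the permutations can give), and the other 3 relations did not pass. This was 1 of several settings tried, and the adjustment covers only the 4 relations within it. With each library left out in turn, this r ranged from 0.035 to 0.92, so the relation is not taken as shown.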

How the data were processed

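Total RNA of 14 chick retinas was sequenced after ribosomal RNA depletion with a stranded kit, per the labels' protocols. STAR, Partek and the build GRCg6a are named in the submitters' processing notes. Not given in the sources used here are versions, the way reads were counted, whether strand was used, and filters on genes. Reads of overlapping or antisense genes may therefore be mixed. The authors deposited 1 table of CPM values for 18631 genes with 0.0001 added to each value, which was removed. The listed genes held 32.9% to 34.2% of the scaling total in control libraries. Depth was the total that made the largest share of values under 1 CPM whole reads, within 0.02 of a read. That share, which the search maximised, was 92.8% to 93.8% in control libraries, so no count model was used. Counting noise did not cover the difference in any of 21 pairs of control libraries (chi-square per gene at least 6.56), and each was kept as 1 sample. Counting errors cover reads, which are not independent molecules.

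Groups and library numbers came from the titles. Mean, SD, CV and excess CV, the CV after counting variance at that depth is subtracted, were computed with Python 3.11.15, numpy 2.4.6, scipy 1.17.1 and pandas 2.3.3, and figures with matplotlib 3.10.9. Simulated reads with known spread were used to test this step. Genes were called variable at an excess CV of at least 0.3 and a mean of at least 5 CPM, and stable at a CV under 0.05 and a mean of at least 50 CPM. Differences of control 65 from the other 6 used log2(CPM + 1), which understates low genes. Principal components used genes with a mean of at least 1 CPM, with exact two-sided permutation over all 5040 pairings of 7 libraries. The planned test of cone over rod levels per length was not run, since coding lengths were not used here. Ratios of CPM are given in its place.

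The members and lists were chosen with earlier results of these data known. The genes named were the markers OPN1LW, GLUL, TFAP2B and RBPMS2, the 20 highest features, the 3 highest members of each list, the cone and rod partners, the 20 most variable genes outside W, the 12 steadiest, the 5 highest W genes, and the 5 Z genes and 5 other genes where 65 differed most. Several of these genes and 1 cone and rod pair are left out of the text, so pair counts and mean deviations cover the 8 pairs given. Other list members were named from the lists, and list symbols that the table does not hold were not analysed here. ARNTL, NFIL3, PER3, GUCA1A, HK2, HSPH1, HSPA5, GFAP, SLC17A6, RPE65, SPARCL1, FN1, the MANBAL and short genes, ADGRV1, MPDZ, RPS6, SLC1A1, CERKL and ST8SIA2 were singled out after their values were seen. Chromosomes were named by the symbols they share with the RefSeq gene table of GRCg7b, and coordinates are as deposited on GRCg6a. Whether a stop base is included is not stated, so an end can be off by 1. Alternatives covered scaling, thresholds, pseudocount and leaving out each library.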

Additional observations from a re-analysis of the deposited data

Results flagged for a closer look

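For each named gene, summed list, ratio and component, the gap between the highest or the lowest of the 7 control libraries and its neighbour was divided by the whole range. Of 179 results examined, 25 (14%) had a ratio above Dixon's critical value for 7 samples. Chance alone flags about 1 in 20 groups whose values did not decide that they were examined. Many of the named genes were chosen from these same values, for a large spread or for a library that differed. The 14% therefore cannot be compared with that rate, and the genes share libraries.

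Most of these rest on control 65, in part because W genes and genes where 65 differed most were among those named. The lowest value was that of 65 for HINTW (0.880), NIPBLL (0.849), CHDB1 (0.656), HNRNPKL (0.838) and RPTC15L (0.763) on W. It was also the lowest for LOC100859072 (0.859), LOC112530611 (0.857), LOC107052260 (0.800) and LOC112530612 (0.602) in the Z stretch. The features taken there for their low reads had 1 read in 65, that of LOC100859072. Together 9 flagged genes were at 0 or near it in 65. Control 65 was lowest as well for SAG (0.663), MITF (0.667) and COL9A1 (0.835), and highest for ONECUT2 (0.792) and CETN3 (0.701), both on Z. The first principal component set it apart from the other 6 (0.782).

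Control 59 was highest for MBP (0.632), for the summed oligodendrocyte list (0.627), which is mostly MBP, and for CCNA2 (0.702). It was the only library with a read of SLC4A1, so that gene and the summed erythrocyte list, which it alone represents, had a ratio of 1. Control 64 was highest for MYBPC3 (0.989) and ANK2 (0.630). Control 58 was highest for CA2 (0.635) and lowest for VAPB (0.607), a gene whose whole range was 84.2 to 87.5 CPM. Control 57 was highest for TXNRD1 (0.836).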

How the results depend on the processing

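Counts of genes past a threshold depended on the level at which genes enter. The 121 variable genes became 461 at a mean of at least 1 CPM, 58 at 10 CPM and 4298 with no filter, and 77 outside Z and W. Leaving out each library gave 81 to 141 (81 without 65), and 75 to 86 outside Z and W. The 453 stable genes became 775 at a mean of at least 20 CPM, 196 at 100 CPM and 936 with no filter, and 438 to 580 with 1 library left out. The log2 ratio of GRK7 over GRK1 was 6.73 with log2(CPM + 1), against 7.85 without the pseudocount, and 7.70 to 8.02 with 1 library left out. Pearson's r of the second component with depth ranged from 0.035 to 0.92 with 1 library left out, the highest without 65. There it passed an adjustment over the 4 relations of that setting, which does not cover the other settings. The r of the first component with depth ranged from -0.64 to 0.32. The cause of these shifts was not tested.

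Another 348 alternatives did not move past these limits, which leaving out 1 of 7 libraries cannot do for a mean judged by its SD. With trimmed-mean factors, 141 of 141 means of named genes moved by less than 1 SD. Leaving out 1 library moved 3 of these means by over 1.5-fold. MYBPC3 was at 0.629 CPM without 64, against 6.07 CPM with it, and LOC112530237 at 43.8 CPM without 63, against 69.0 CPM. SLC4A1, at 0.00395 CPM, had reads in 59 alone. The other means moved by at most 1.43-fold. Expressed genes numbered 11120 to 11158 with 1 library left out, and at least 19 of the 20 highest features were shared. Z genes at least 1.5-fold higher in 65 numbered 141 to 146, against 140. Trimmed-mean factors were 0.980 to 1.01. Alternatives outside Z and W, for Z genes and for named genes were added after seeing the data. Levels per coding length were not run. Depth limits statements on genes under 0.0928 CPM in the shallowest library. No paired analysis was possible because control and lens libraries share no replicate number. Spread in the lens group was set beside that in control without a test.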
